A study of Mus musculus with 7 samples.

Results

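Txnip and 7 genes tied to glucose sensing through the transcription factor ChREBP were examined in sorted beta cells of early-weaned and suckling mice. The 8 genes are Txnip, Arrdc3, Arrdc4, Mlxipl, Mlx, Pklr, Klf10 and Bhlhe40, and they were chosen by gene symbol in the array annotation. Each has 1 probe set, so 8 of the 19938 genes with a single-gene probe set are described. The arrays came from 7 mice with the genotype insulin-Cre; Rosa26-LSL-YFP on an ICR background, all at postnatal day 25. Of these, 3 mice had been taken from the mother prematurely at day 18 (weaned replicates 4, 5 and 12) and 4 were still suckling (replicates 2, 9, 11 and 12). In all 7 mice the insulin-driven Cre had switched on a yellow fluorescent protein, which marks every cell in which the driver was ever active. From each mouse 2000 to 6000 fluorescent cells were sorted, and each mouse gave 1 Affymetrix array.

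ChREBP, encoded by Mlxipl, is a basic helix-loop-helix leucine zipper protein that is activated by metabolites of glucose. It binds DNA together with its partner Mlx at carbohydrate response elements, which are pairs of E-box-like motifs set a short distance apart. In islets the thioredoxin-binding protein Txnip is among the transcripts known to respond most to glucose, and through ChREBP it reports how much glucose a beta cell takes up and metabolises. Milk is rich in fat and solid food is rich in carbohydrate, so weaning changes the fuel that reaches these cells.

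Promoters of 3 targets are shown because ChREBP and its relative MondoA act on target genes through the response element. RefSeq (build GRCm38.p6) gave 10 start sites for 6 of the 8 genes, and Klf10 and Bhlhe40 had no entry. In the 250 bases before each start site, a pair of motifs in the arrangement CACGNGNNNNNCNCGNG, searched on both strands, occurred in Txnip and in the second start site of Pklr. It occurs in 0.28% of all 32851 such windows. The sequences are printed on the gene's strand, 5′ to 3′, and capitals mark each CACGNG on either strand, which occurs in 23.5% of all windows.
Txnip, chr3:96557707-96557956, plus strand: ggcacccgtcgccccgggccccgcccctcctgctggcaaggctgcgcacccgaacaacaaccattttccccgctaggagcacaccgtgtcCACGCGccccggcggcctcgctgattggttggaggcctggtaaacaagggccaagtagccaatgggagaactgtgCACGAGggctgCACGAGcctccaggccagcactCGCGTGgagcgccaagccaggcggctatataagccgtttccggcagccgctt
Pklr, chr3:89136373-89136622, plus strand: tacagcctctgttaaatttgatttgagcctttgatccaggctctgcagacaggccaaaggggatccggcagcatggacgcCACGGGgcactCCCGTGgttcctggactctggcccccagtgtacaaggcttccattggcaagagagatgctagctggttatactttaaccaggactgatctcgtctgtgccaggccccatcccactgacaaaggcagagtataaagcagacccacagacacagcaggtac
Arrdc4, chr7:68749239-68749488, minus strand: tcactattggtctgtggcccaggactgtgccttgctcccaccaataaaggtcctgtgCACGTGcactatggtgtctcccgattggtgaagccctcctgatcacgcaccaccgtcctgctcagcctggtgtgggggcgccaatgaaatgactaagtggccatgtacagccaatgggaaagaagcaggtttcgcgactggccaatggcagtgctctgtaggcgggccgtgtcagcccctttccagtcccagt

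The paired motif begins 85 bases before the Txnip start site and 170 bases before the Pklr start site. The Arrdc4 window, shown as that of the nearest relative of Txnip, holds the palindrome CACGTG once, 193 bases before the start. That palindrome is a special case of CACGNG and also occurs once in the first window of Mlxipl and in the window of Mlx, against 6.02% of all windows. None of the 3 Arrdc3 windows holds CACGNG, which says only that these letters are not in those windows. A match describes the letters and is not a bound site.

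Beta-cell markers gave strong signal as a list, which is not a reading of the fluorescent label. Single markers ran from Mafa, at 5.83 in weaned and 6.01 in suckling mice, to Iapp, at 12.5 in both. Ins1 was not measured. The mean level of 9 measured beta-cell markers was 9.69 to 9.85 log2 units on weaned arrays and 9.71 to 9.82 on suckling arrays. Markers of alpha, delta and PP cells also gave strong signal, with list means of 8.96 to 9.31 on weaned and 8.86 to 9.25 on suckling arrays. Their summed intensity was 10591 to 14420 on weaned and 10907 to 14039 on suckling arrays. The beta-cell markers summed to 14751 to 16730 and 15487 to 16520. These sums come from different probes and give no shares of cells. The signal of acinar cells, the enzyme-secreting cells around the islet, varied most. The summed intensity of 15 acinar markers was 217 to 1493 on weaned arrays and 326 to 5339 on suckling arrays, and suckling replicates 2 and 9 held the most. All 15 acinar markers had a lower mean in weaned mice. The descriptions carry 1 code for the weaned and another for the suckling arrays, so an effect of whatever the codes mean and an effect of weaning cannot be told apart. In such bulk RNA, fewer cells of a type and less RNA per cell cannot be told apart either. The median intensity of an array was 14.1 to 14.9.

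The comparison of weaned with suckling mice asks how early weaning bears on these genes in beta cells of the same age. None of the 8 genes passed the test across all genes (limma, adjusted p of 0.05), none had an unadjusted p under 0.05, and in none were the groups of arrays separate. Of all 19938 genes, 0.015% passed at the adjusted threshold, 7.58% had an unadjusted p under 0.05 and 7.32% had groups that did not overlap. The 3 genes that passed, Hapln4, AI506816 and Cstdc1, are named here after their values were seen and are not among the 8. The mean was higher in weaned mice for 6 of the 8 genes, against 50.1% of all genes. Taken as weaned minus suckling, the log2 differences had a median of 0.070 over the 8 genes and 0.00047 over all genes. The median of the 8 was -0.044 without suckling replicates 2 and 9, -0.0077 with the acinar level as a covariate, 0.017 with the immediate early level as a covariate and 0.037 with quantile normalization. With a single array left out it was 0.043 (weaned replicate 4), 0.037 (weaned 5), 0.035 (suckling 2) or 0.038 (suckling 9). All 8 genes had 95% intervals inside a 2-fold difference in either direction, each interval taken on its own. All 8 lay above 3.27 log2 units in both groups, the 95th percentile of 1027 olfactory receptor genes, which served as a guide to background.

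**Figure D1:**
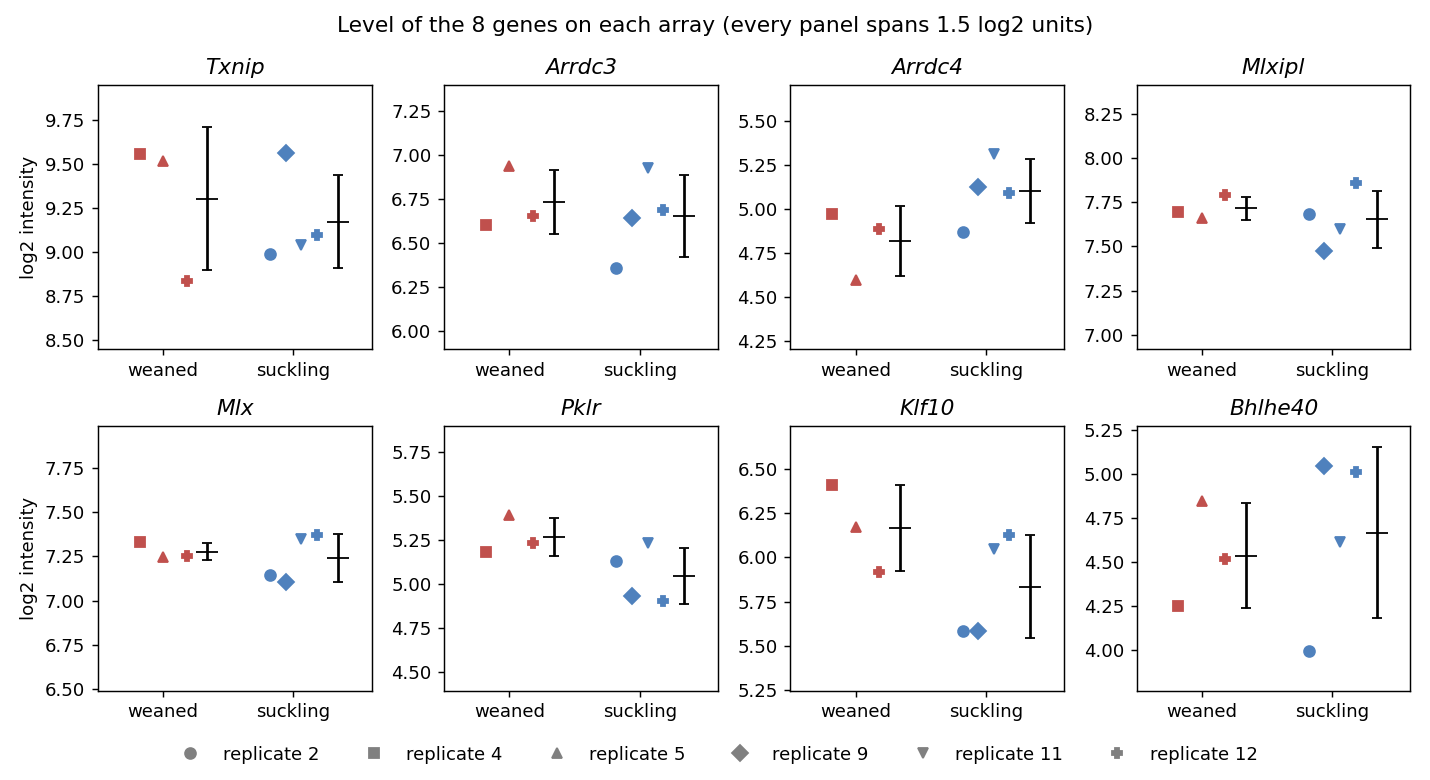
Level of each of the 8 genes on every array in log2 intensity, with weaned mice (red) left of suckling mice (blue), a marker shape for each replicate number, and the group mean with SD in black. The groups overlap in all 8 panels, and Txnip lies at 9.52 to 9.56 on 3 arrays and at 8.84 to 9.10 on the other 4.

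The factors that read glucose differed between the groups by less than the spread between mice. Mlxipl, which encodes ChREBP, measured 7.70, 7.66 and 7.79 log2 units on weaned replicates 4, 5 and 12, against 7.68, 7.47, 7.60 and 7.86 on suckling replicates 2, 9, 11 and 12. All weaned values lie within the range of the suckling ones. The log2 difference was 0.062 (SE 0.12, 95% interval -0.21 to 0.33, limma adjusted p = 0.938). The array has 1 probe set for Mlxipl, so transcripts from its annotated start sites were not separated here. The difference was 0.0019 when suckling replicate 9 was left out, 0.024 when weaned replicate 12 was and 0.13 when suckling replicate 12 was. It was -0.013 without suckling replicates 2 and 9, 0.036 with quantile normalization and 0.096 with array weights.

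Mlx, the obligate DNA-binding partner of ChREBP, measured 7.33, 7.25 and 7.25 log2 units in weaned mice and 7.14, 7.11, 7.35 and 7.37 in suckling mice. The suckling arrays lie on both sides of the weaned ones, and the 2 low suckling values are those of replicates 2 and 9. The log2 difference was 0.034 (SE 0.11, interval -0.22 to 0.29, limma adjusted p = 0.966). It turned to -0.083 without suckling replicates 2 and 9, to -0.058 with the acinar covariate, to -0.011 without suckling replicate 9 alone and to -0.0043 with quantile normalization. It was 0.0015 without suckling replicate 2, 0.0065 without weaned replicate 4, 0.014 with the immediate early covariate, 0.015 with centred arrays, 0.070 without suckling replicate 11 and 0.077 without suckling replicate 12. Mlx varied little, with an SD within groups of 0.11 log2 units against 0.19 for the median gene.

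Txnip encodes an alpha-arrestin that binds thioredoxin and restrains glucose uptake. It measured 9.56, 9.52 and 8.84 log2 units on weaned replicates 4, 5 and 12, against 8.99, 9.56, 9.04 and 9.10 on suckling replicates 2, 9, 11 and 12. The widest gap between neighbouring arrays was 0.42, against 0.10 to 0.33 for the other 7 genes. By this gap, seen in the data and not tested, the arrays are called high or low. Each of these levels held mice of both groups. Weaned replicates 4 and 5 and suckling replicate 9 were high, and the remaining 4 arrays were low. The means were 9.30 ± 0.41 in weaned and 9.17 ± 0.26 in suckling mice (SD, n = 3 and 4), a log2 difference of 0.13 (SE 0.21, limma adjusted p = 0.915). The 95% interval of -0.33 to 0.59 runs from 1.26-fold lower to 1.51-fold higher in weaned mice. Single arrays moved this value strongly: it was 0.36 when weaned replicate 12 was left out, 0.26 when suckling replicate 9 was, 0.0038 when weaned replicate 4 was and 0.023 when weaned replicate 5 was. It was 0.23 with suckling replicates 2 and 9 both left out, 0.069 without suckling replicate 2 alone, 0.062 with array weights, 0.080 with the acinar level as a covariate and 0.020 with the immediate early level as a covariate, and none of the 17 other fits brought it past the threshold.

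The spread of Txnip between mice of 1 group was wide, with an SD within groups of 0.33 log2 units, wider than in 90.0% of all genes. The summed acinar intensity was 256, 217 and 4715 on the 3 high arrays and 1493, 5339, 326 and 883 on the 4 low ones. Markers of beta cells summed to 16730, 16008 and 15751 on the high arrays, against 14751, 15631, 16520 and 15487 on the low ones. The summed intensity of 14 immediate early genes, which respond to cell dissociation, was 1637, 2588 and 1475 on the high arrays and 1251, 1174, 1649 and 1394 on the low ones. The part of these signals in the Txnip levels was not tested. Because the arrays were split at this gap, no correlation of Txnip with the other 7 genes was tested, and there are too few arrays for one within a level.

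Arrdc4, the alpha-arrestin closest to Txnip and likewise a target of the Mondo factors, measured 4.97, 4.60 and 4.89 log2 units in weaned mice, against 4.87, 5.13, 5.31 and 5.09 in suckling mice. Weaned replicate 5 was the lowest array, and suckling replicate 2 lay among the weaned values while the other 3 suckling arrays lay above them. The mean was 4.82 ± 0.20 in the weaned and 5.10 ± 0.18 in the suckling group (SD, n = 3 and 4), a log2 difference of -0.28 (SE 0.14, interval -0.60 to 0.038, limma adjusted p = 0.687). It had the smallest p of the 8 genes, yet 2252 of the 19938 genes had a smaller one. The value was -0.17 without weaned replicate 5 and -0.38 without suckling replicates 2 and 9. On the 3 arrays with high Txnip, weaned replicates 4 and 5 and suckling replicate 9, Arrdc4 was at 4.97, 4.60 and 5.13, which spans most of its range.

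Arrdc3, an alpha-arrestin that acts in the trafficking of adrenergic receptors, measured 6.60, 6.94 and 6.66 log2 units in weaned mice and 6.36, 6.65, 6.93 and 6.69 in suckling mice. The highest arrays of both groups were alike, and suckling replicate 2 was the lowest. The log2 difference was 0.078 (SE 0.15, interval -0.27 to 0.42, limma adjusted p = 0.938). It turned to -0.021 without suckling replicate 2, to -0.025 without weaned replicate 5, to -0.075 with the acinar level as a covariate, to -0.059 with the immediate early level as a covariate and to -0.075 without suckling replicates 2 and 9. It was 0.14 without weaned replicate 4, 0.17 without suckling replicate 11 and 0.039 with quantile normalization.

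Pklr encodes the pyruvate kinase of liver and red cells, the classical gene in which the carbohydrate response element was studied. It measured 5.18, 5.39 and 5.24 log2 units in weaned mice and 5.13, 4.93, 5.23 and 4.90 in suckling mice. Suckling replicate 11 lay inside the weaned range and the other 3 suckling arrays below it. The mean was 5.27 ± 0.11 in weaned and 5.05 ± 0.16 in suckling mice (SD, n = 3 and 4), a log2 difference of 0.22 (SE 0.12, interval -0.058 to 0.50, limma adjusted p = 0.718). It stayed positive in all alternatives run, from 0.16 to 0.28. Pklr was at 5.18, 5.39 and 4.93 on the 3 arrays with high Txnip, weaned replicates 4 and 5 and suckling replicate 9. These take in its highest and one of its 2 lowest values. The Txnip window and the window of the second Pklr start site hold the paired motif printed above, and that of the first Pklr start site does not. The array has 1 probe set for Pklr, so transcripts from its start sites were not separated. The part of the motif in these levels was not tested.

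**Figure D2:**
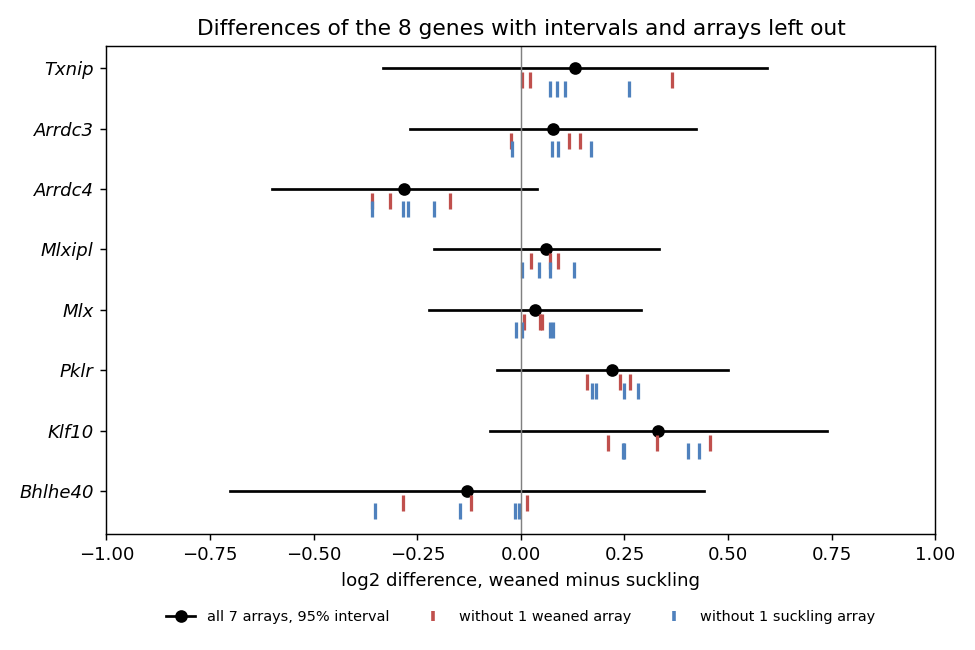
Log2 difference, weaned minus suckling, of the 8 genes (black points) with 95% intervals (lines) over all 7 arrays, and the value without each weaned (red ticks) or suckling (blue ticks) array. All 8 intervals include 0 and lie within 1 log2 unit of it, and the ticks of Txnip run from 0.0038 to 0.36.

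Klf10 is a Krüppel-like repressor that is induced by TGF-beta and by glucose. It measured 6.41, 6.18 and 5.92 log2 units in weaned mice, against 5.58, 5.58, 6.05 and 6.13 in suckling mice. Suckling replicates 2 and 9 lay below all weaned arrays, and suckling replicates 11 and 12 lay inside the weaned range. The mean was 6.17 ± 0.25 in weaned and 5.83 ± 0.29 in suckling mice (SD, n = 3 and 4), the widest difference of the 8 genes at 0.33 log2 units (SE 0.18, interval -0.075 to 0.74, limma adjusted p = 0.712).

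The low Klf10 arrays were those with the most acinar signal. Within the suckling group the summed acinar intensity was 5339 and 4715 on replicates 2 and 9, against 326 and 883 on replicates 11 and 12. Of the latter, replicate 12 had the higher acinar sum and also the higher Klf10 value, 6.13 against 6.05. Within the weaned group the lowest Klf10 value belonged to replicate 12, which had an acinar sum of 1493, against 256 and 217 on replicates 4 and 5. Between these, replicate 4 was higher in both the acinar sum and Klf10. The Klf10 difference was 0.079 without suckling replicates 2 and 9 and 0.082 with the acinar level as a covariate. Of the 14 immediate early genes 10 likewise had a higher mean after weaning, and the 14 log2 differences had a median of 0.36. None of the 14 had an unadjusted p under 0.05 (limma). By the list mean only weaned replicate 5, at 6.59, lay above the suckling arrays, which ran from 5.59 to 6.10. Weaned replicates 4 and 12 lay inside that range, at 5.95 and 5.76. A fit with the immediate early level as a covariate gave a Klf10 difference of 0.24. It was 0.21 without weaned replicate 4. The part of these signals in the result was not tested.

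Bhlhe40, a helix-loop-helix repressor of the circadian clock that responds to many stimuli, measured 4.25, 4.84 and 4.52 log2 units in weaned mice and 4.00, 5.04, 4.61 and 5.01 in suckling mice. Suckling replicate 2 was lowest and suckling replicates 9 and 12 were highest, so the suckling arrays enclosed the weaned ones. The log2 difference was -0.13 (SE 0.25, interval -0.70 to 0.44, limma adjusted p = 0.938). It was 0.014 when weaned replicate 4 was left out, -0.35 when suckling replicate 2 was left out, -0.28 without weaned replicate 5, -0.28 without suckling replicates 2 and 9 together, -0.24 with the acinar covariate, -0.31 with the immediate early covariate, -0.0045 without suckling replicate 9 and -0.014 without suckling replicate 12. Its SD within groups, 0.42 log2 units, was wider than in 96.7% of all genes.

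The genes whose levels ran most like Txnip over the 7 arrays were Has3, a hyaluronan synthase (Pearson r = 0.971), Rpp14, a subunit of ribonuclease P (0.967), Fzd5, a receptor for Wnt ligands (0.963), Rnf157, a ubiquitin ligase (0.957), and Elk3, an ETS-family transcription factor (0.954). This r is a description of likeness over 7 arrays with no test, and with so wide a gap in Txnip it mainly describes which 3 arrays are high. Of all genes with a value, 33, or 0.166%, had an r above 0.9. As genes picked for this likeness, all 5 were higher on weaned replicates 4 and 5 and on suckling replicate 9 than on any other array. The share of genes expected above that r by chance was not worked out. Rpp14 had the widest range of the 5, with 6.52, 6.41 and 6.60 log2 units on these 3 arrays. On weaned replicate 12 it was at 5.75, and on suckling replicates 2, 11 and 12 at 5.85, 6.11 and 6.15. Has3 ran only from 3.63 to 3.89 over all arrays, not far above the background guide of 3.27. Rnf157 ran from 3.69 to 4.07 and Elk3 from 6.22 to 6.62. The log2 differences of the 5 genes between the groups were 0.050 to 0.15, and none passed the threshold.

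**Figure D3:**
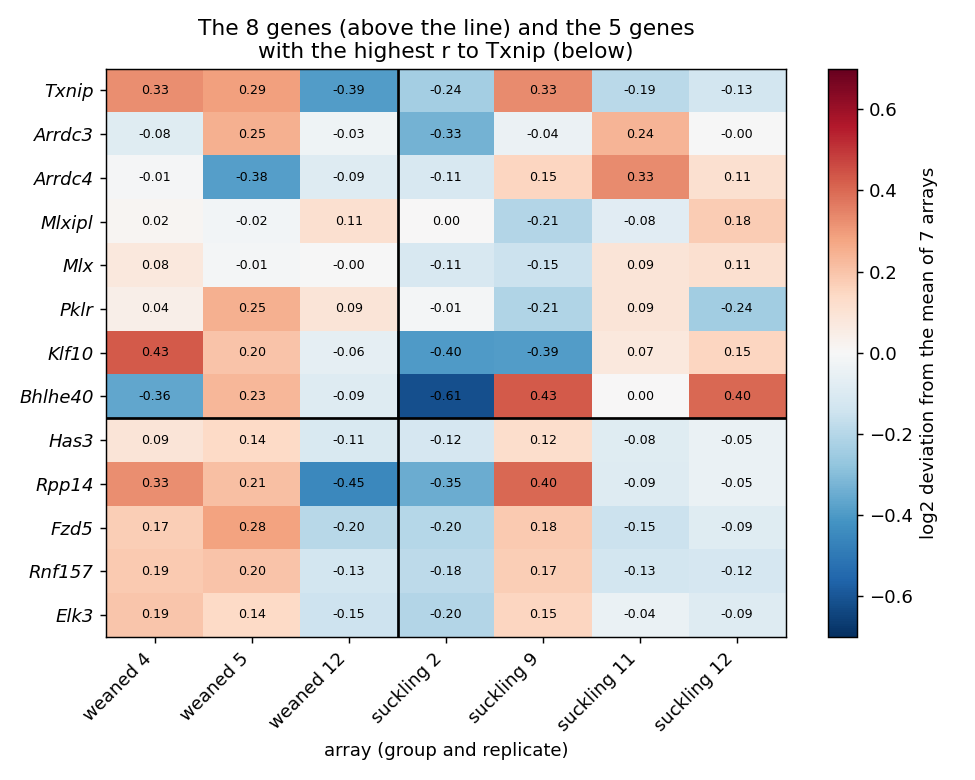
Log2 deviation from the mean of 7 arrays for the 8 genes and, below the line, for the 5 genes with the highest Pearson r to Txnip, with weaned arrays left of suckling arrays. Txnip and those 5 genes are high on weaned 4, weaned 5 and suckling 9, a pattern that the other 7 of the 8 genes do not share.

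Other partners in the network of ChREBP were measured for 11 of 11 listed genes. None passed, and 5 had a higher and 6 a lower mean after weaning. The log2 differences had a median of -0.054. None of them had an unadjusted p under 0.05. The 2 with the smallest p were Mxi1, a Max-binding repressor (0.24, SE 0.12, limma adjusted p = 0.681), and Mga, a Max-binding factor (0.36, SE 0.21, adjusted p = 0.722). Mlxip, which encodes the ChREBP relative MondoA, was at 6.19 ± 0.12 log2 units in weaned mice and 6.02 ± 0.32 in suckling mice (SD, n = 3 and 4).

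Of 13 further arrestins and genes of the thioredoxin system, all measured, none passed, and the median log2 difference was 0.031. An unadjusted p under 0.05 was seen for 1 of the 13, a share near the 7.58% of all genes. That gene was Arrdc1, an alpha-arrestin that takes part in the release of membrane vesicles. It stood at 6.27 ± 0.28 log2 units in weaned mice and 5.62 ± 0.38 in suckling mice (SD, n = 3 and 4), a difference of 0.64 (SE 0.21, limma adjusted p = 0.572). Next came Txnl1, a thioredoxin-like protein of the proteasome (-0.21, SE 0.11, adjusted p = 0.712). Txn1, the cytosolic thioredoxin that Txnip binds, differed by 0.23 (SE 0.20).

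Other known ChREBP targets, mostly described in liver, were measured for 23 of 25 genes. None passed, and 12 had a higher and 11 a lower mean after weaning, with log2 differences centred on a median of 0.030. Groups that did not overlap were seen for 3 of 23, Taldo1, Acly and Acaca, where all genes gave 7.32%. Acaca, an acetyl-CoA carboxylase, differed by 0.23 (SE 0.11, limma adjusted p = 0.672), and its other probe set by 0.42. At an unadjusted p under 0.05 there were 3 higher and 1 lower of 23, where all genes gave 7.58%. The higher ones at that p were Taldo1 and Tkt, transaldolase and transketolase of the pentose phosphate pathway, and Fads2, a fatty acid desaturase. Taldo1 differed by 0.52 (SE 0.15, limma adjusted p = 0.511), Tkt by 0.33 (SE 0.14) and Fads2 by 0.48 (SE 0.21). The lower one was Acly, ATP citrate lyase, which averaged 10.3 ± 0.25 log2 units in the weaned group and 10.7 ± 0.064 in the suckling group (SD, n = 3 and 4), a difference of -0.35 (SE 0.13, adjusted p = 0.623). Fasn, the fatty acid synthase, differed by 0.14 (SE 0.11).

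Of 17 genes of glucose uptake, glycolysis, glucose-6-phosphate cleavage and the ATP-sensitive potassium channel, 16 were measured, with a median log2 difference of 0.0058. None passed. An unadjusted p under 0.05 and groups that did not overlap were seen for 1 of the 16, shares near the 7.58% and 7.32% of all genes. This was Pgk1, phosphoglycerate kinase, at -0.29 (SE 0.11, limma adjusted p = 0.634). Of its 3 probe sets 2 hold identical values and the third differed by -0.16. The gene with the next smallest p was Aldoa, an aldolase (0.19, SE 0.12, adjusted p = 0.763). The glucose transporter gene Slc2a2 differed by 0.047 (interval -0.20 to 0.29), and G6pc2, the islet glucose-6-phosphatase, by 0.0018 (interval -0.24 to 0.25).

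Relatives of Klf10 and clock partners of Bhlhe40 were measured for 14 of 14 genes, with a median log2 difference of -0.0027, 7 higher and 7 lower in mean. None passed and none had an unadjusted p under 0.05. The smallest p values belonged to Nr1d1, the nuclear receptor REV-ERB alpha of the clock (-0.31, SE 0.21, limma adjusted p = 0.776), and Dbp, an output gene of the clock (0.27, SE 0.21, adjusted p = 0.799).

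**Figure D4:**
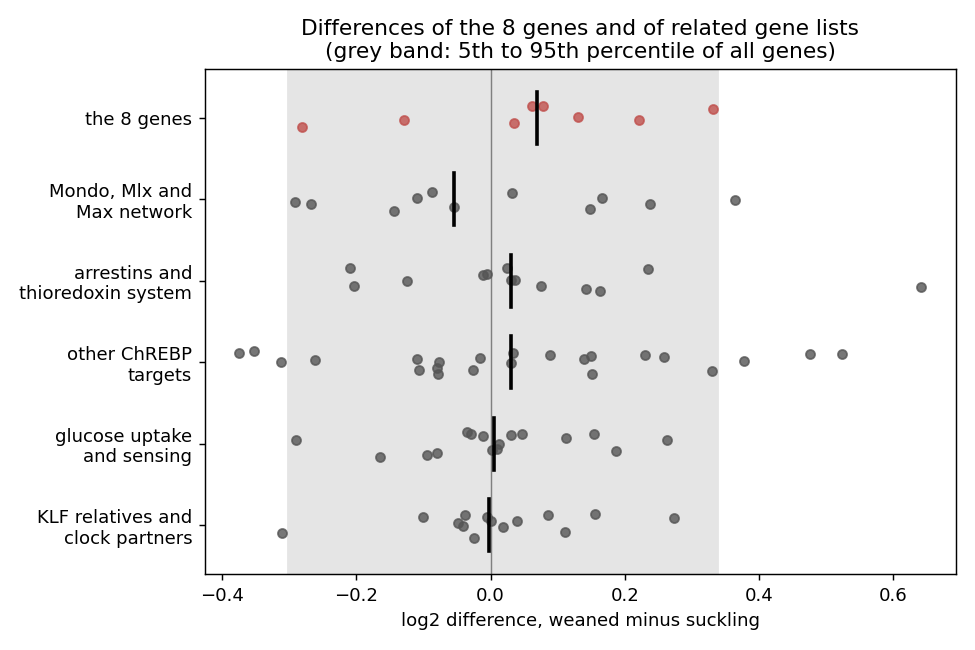
Log2 difference, weaned minus suckling, of each of the 8 genes (red) and of each measured gene of 5 related lists (grey), with the list median as a black bar and the 5th to 95th percentile of all genes, -0.30 to 0.34, as a grey band. The 8 genes all lie inside the band, and Arrdc1 at 0.64 is the gene farthest from 0.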

How the data were processed

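The authors deposited an intensity for every probe set on every array. They used RMA and Partek 6.6 according to the submitters' processing notes, with no settings given. They run from 1.45 to 12755, a linear scale, so log2 was taken. RMA draws differences of dim probe sets towards 0. RNA was amplified before labelling, per the labels' protocols.

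The platform annotation gives 1 gene symbol to 21789 of the 35556 probe sets, several to 1621 and none to 12146. For 999 genes with several probe sets the one with the highest mean over all arrays was used, which left 19938 genes. All 7 value columns were used. Genes were compared with limma 3.58.1 in R 4.3.3 (lmFit, eBayes, no covariate, two-sided), with Benjamini-Hochberg adjustment over all genes. The fit was tested on simulated data with normal noise, in which 200 genes were changed by 1.5-, 2- or 4-fold. There it recovered 33.2% of 1.5-fold and 93.1% of 2-fold changes. In the real data only 3 genes passed, which makes the adjusted threshold harder to reach, so these shares can be too high. For example, Il1r2 differed by 1.16 log2 units (SE 0.19) and did not pass (limma adjusted p = 0.217). The widest difference of the 8 genes, that of Klf10, was 1.26-fold, so changes of such a size could be missed. Differences are weaned minus suckling. Levels of different genes come from different probes, so the background guide, the list means and the marker sums allow only a rough comparison. Each mouse is 1 replicate, and the number of arrays limits the precision.

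The members, lists, tests and named genes were chosen with earlier results of these data known. Named are the 8 genes, the 2 genes with the smallest p of each of 5 related lists, and the 5 genes most correlated with Txnip, among which predicted genes, small non-coding RNAs and olfactory receptors were passed over. Other genes, such as Mlxip, Txn1, Tkt, Fads2, Fasn, Acaca, Slc2a2, G6pc2, Mafa, Iapp and Il1r2, were added after their values were seen. Markers of duct, endothelial, stellate and leukocyte cells (15 measured) had list means of 3.49 to 3.79 on weaned and 3.70 to 3.83 on suckling arrays. Listed genes that lack a probe set of their own were not analysed here.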

Additional observations from a re-analysis of the deposited data

How the results depend on the processing

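None of the 8 genes passed under any of the 17 alternatives run (limma, adjusted p of 0.559 or more). Arrdc4 reached an unadjusted p under 0.05 with quantile normalization, with array weights and without suckling replicate 2, and Klf10 without suckling replicate 12. The number of all genes that passed was 3, and it was 9 with an intensity trend and robust prior, 5 with quantile normalization, 7 among genes above the 25th percentile of level, 8 among those above the median, 5 with the mean of probe sets, 0 without suckling replicates 2 and 9 together (1089 at an unadjusted p under 0.05), and 1 to 3 with 1 array left out. It was 1 without any single one of weaned replicates 4 and 5 and suckling replicates 9, 11 and 12. Above the median level 908 genes had an unadjusted p under 0.05, where fewer genes were tested, against 1512.

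Of 136 differences of single genes under the alternatives, 125 kept their sign and 11 did not. Mlx turned to -0.0043 with quantile normalization. With the acinar covariate Arrdc3 was -0.075 and Mlx -0.058. Without suckling replicates 2 and 9 together Arrdc3 was -0.075, Mlxipl -0.013 and Mlx -0.083. With the immediate early covariate, chosen after seeing the data, Arrdc3 was -0.059. With 1 array left out, Arrdc3 ran from -0.025 to 0.17, Mlx from -0.011 to 0.077, Bhlhe40 from -0.35 to 0.014, Txnip from 0.0038 to 0.36, Klf10 from 0.21 to 0.46, Arrdc4 from -0.36 to -0.17, Pklr from 0.16 to 0.28, Mlxipl from 0.0019 to 0.13 and the median of the 8 from 0.035 to 0.097. The causes were not tested. No paired analysis was possible because the groups share only replicate number 12. A planned test of the correlation of Txnip with the other 7 genes was not run because the arrays were split at the widest gap of Txnip. Its planned repeat without the arrays farthest from the Txnip median was not run either. The r used to find the genes most like Txnip is an untested description.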
